A study of Mus musculus with 6 samples.

Results

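Prox sub3 is 1 of the clusters into which the authors divided mouse kidney cells, and 316 of its 318 cells carry the class Proximal s1/s2 in the same deposited annotation. These 316 cells were taken as the cells that hold both labels, out of 22154 cells and out of 2966 cells of the Proximal s1/s2 class. The other 2650 cells of the class lie in the main cluster (2308 cells), in the cluster Proximal sub2 (335 cells) and in a thin limb cluster (7 cells). The remaining 2 cells of Prox sub3 belong to the connecting tubule class and both come from furosemide library 4. The kidneys came from wild-type C57BL/6J mice aged 16 weeks, all on a gel diet with a sodium content of 104 µmol per kcal. For 1 week that food held furosemide at 70 mg per kg body weight in 3 samples and vehicle in 3 samples. Libraries 1, 3 and 5 are the vehicle libraries and libraries 2, 4 and 6 the furosemide libraries. Cells were obtained with collagenase and mechanical force and captured on BD Rhapsody beads. The deposited counts cover a panel of 456 genes, so each level below is a share of panel counts, scaled to a total of 1000000 and called CPM.

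The first and second segments of the proximal tubule (S1 and S2) take back most filtered glucose, phosphate, bicarbonate and amino acids. They also make glucose, and S2 in particular secretes organic anions from the blood into the urine. The third segment, S3, shares part of this programme and in mice is marked by Kap, the kidney androgen-regulated protein. Furosemide blocks the sodium, potassium and chloride cotransporter of the thick ascending limb, which lies downstream of these segments, and reaches the tubular fluid by organic anion secretion in the proximal tubule.

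The label held for most of the cells. Slc5a2, the sodium and glucose cotransporter of early proximal tubule, had a count in 98.4% of the 316 cells at a median of 621.5 panel counts per cell. In the authors' immune class, which should lack the transcript, 6.41% of 546 cells had one at a median of 817 counts. Its pooled level was 28098 CPM against 35705 CPM in the other Proximal s1/s2 cells. Gatm, which makes the precursor of creatine, was weakly covered by the panel, with 192 CPM and a count in 10.1% of the cells, against 465 CPM and 29.1% in the other cells of the class and 1.47% of immune cells. By counts, which are not per transcript length, Kap came first in 10 cells and Gpx1 (glutathione peroxidase 1) in 4. Lyz2, Esm1, Plat, Tmsb4x, Aqp1 and Ttr came first in 1 cell each.

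A few cells went against the label. Cells with 2 or more counts of the listed immune markers in the panel (Cd68, Cd74, Lyz2, C1qa and H2-Aa) numbered 13. Cells with 2 or more counts of the endothelial markers Cdh5 and Tek numbered 10, and cells with 2 or more counts of Havcr1 (the tubular injury marker KIM-1) numbered 4. Of these cells, 4 were of more than 1 kind, 3 of them in furosemide library 4. All kinds together were 23 cells, or 7.28% of the 316. Of the other 2650 cells of the class, 68 (2.57%) met the same criterion. Furosemide library 4 stood apart: 7 of its 20 cells met it, against 2 to 5 cells in each of the other libraries, which held 40 to 90 cells. These 23 cells are called marker cells below, and results that rest on them are given with and without them. That alternative was chosen after the data had been seen.

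The 316 cells held 224247 counts, with a median of 78 genes per cell and between 205 and 3007 counts per cell. They were shallower than the other cells of the class in all 6 libraries. The medians of the 316 cells against the others were 569 and 789 counts in vehicle library 1, 874 and 1045 in library 3, and 426 and 673 in library 5. In furosemide libraries 2, 4 and 6 they were 677 and 868, 664 and 805, and 724.5 and 845. In the panel, 366 genes had a count in at least 1 cell and 90 had none. Whole libraries held 3051 to 4439 cells and 4819988 to 7635509 counts. A cell number that also occurs in another library was found for 6 of the 316 cells and for 392 cells in all.

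The cluster was found in every library, and its share did not separate the treatments. Libraries 1, 3 and 5 held 59, 40 and 67 of the cells, and libraries 2, 4 and 6 held 40, 20 and 90. As a percentage of Proximal s1/s2 cells the share was 10.9% ± 2.2 (SD, n = 3) with vehicle and 9.60% ± 4.18 (SD, n = 3) with furosemide (2-sided exact permutation p = 0.7). As a percentage of all cells it was 1.49% ± 0.31 and 1.42% ± 1.03 (exact permutation p = 0.9). Both the lowest share, 5.31% in library 4 (95% Wilson interval 3.46 to 8.05), and the highest, 13.7% in library 6 (11.2 to 16.5), were furosemide libraries. Median counts per cell were 623 ± 229 with vehicle and 688.5 ± 31.9 with furosemide (exact permutation p = 0.7), and median genes per cell 77.5 ± 13.8 and 84.5 ± 5.5 (exact permutation p = 0.5). All 5 such comparisons had an adjusted p of 1, and 3 against 3 libraries allow no p under 0.1. The authors had equalised cell numbers between treatments before deposit, so these shares describe the deposited cells.

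**Figure D1:**
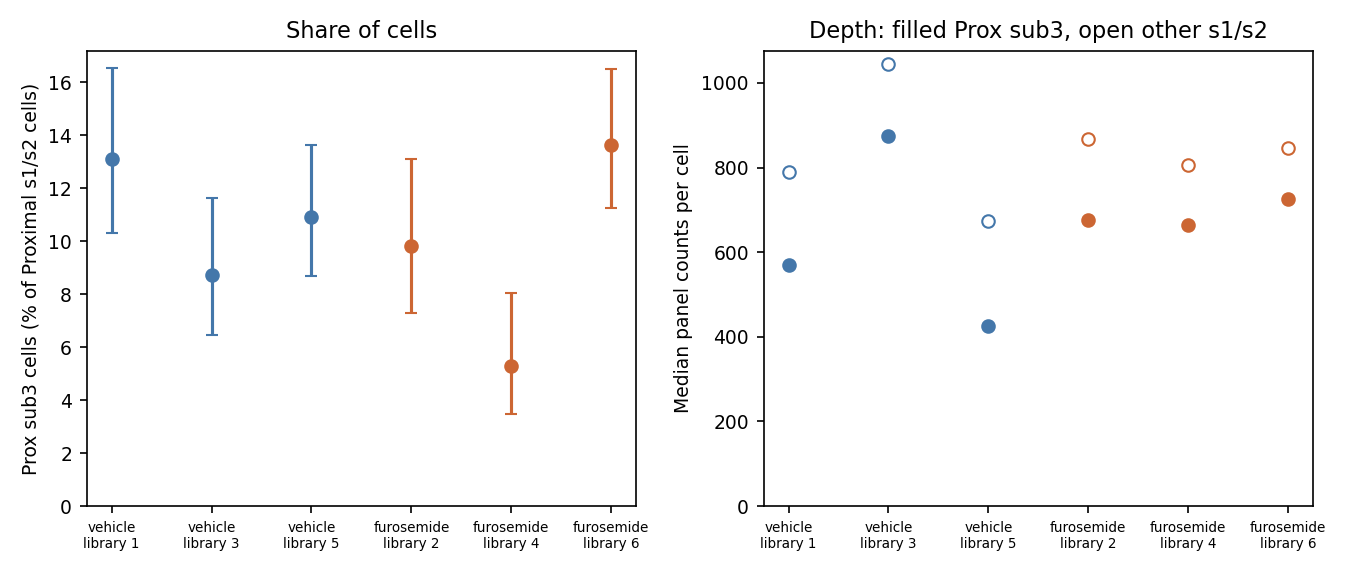
Left, Prox sub3 cells as a percentage of the Proximal s1/s2 cells of each library, with 95% Wilson intervals (counting error only). Right, the median panel counts per cell of the Prox sub3 cells (filled) and of the other Proximal s1/s2 cells (open). Shares run from 5.31% to 13.7%, both in furosemide libraries, and every filled point lies under its open one.

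Compared with the other cells of its class, Prox sub3 held more transcript of organic ion transporters. It held less of the glucose production gene G6pc, of the phosphate transporter gene Slc34a3 and of Spp1. Summed over cells, Kap was higher too, but 10 cells held 39.8% of its counts. Levels were compared within each library, as the log2 ratio of CPM plus 1, for the 129 genes that reached 500 CPM in either set. These genes also formed the clusters, so the ratios are a description and were not tested. In all 6 libraries 17 genes were higher (13.2%) and 34 lower (26.4%), so that 39.5% kept 1 direction throughout. The median ratio of the 129 genes was -0.21.

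Among S1 and S2 markers, 10 of the 11 in the panel were measured at this level, and 6 were lower and 2 higher in every library, with a median of -0.33. Spp2, a secreted phosphoprotein, stood at 18320 ± 2947 CPM (SD, n = 6) against 35690 ± 4501. G6pc, the last enzyme of glucose release, stood at 8185 ± 1774 CPM against 18500 ± 5025. Slc2a2, the glucose exit transporter of the basolateral membrane, stood at 3334 ± 331 against 5557 ± 616 CPM. Each of these genes was lower in all libraries, as were Slc4a4, the sodium bicarbonate cotransporter, by a mean log2 ratio of -0.84, and Pck1, which starts glucose production, by the smaller -0.28. The ratio of Pck1 was close to the median of the 129 genes. Slc5a2 itself had a ratio of -0.37, with -0.12 in library 3 and -0.78 in library 4 as its extremes. Kl, the co-receptor of the phosphate hormone FGF23, had no common direction, with 5006 ± 1447 against 4327 ± 701 CPM.

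The 2 markers of that list which went the other way transport organic anions. Slc22a6, the organic anion transporter OAT1, had 3279, 3956 and 3009 CPM in vehicle libraries 1, 3 and 5 and 3733, 3146 and 2353 CPM in furosemide libraries 2, 4 and 6. The other cells of the class had 1709, 1856 and 1868 CPM and then 1820, 1672 and 1172 CPM in the same order, so that the 2 sets did not overlap. Its mean log2 ratio was 0.95 ± 0.14 (SD, n = 6). Slc22a8, the related transporter OAT3, had a ratio of 0.24, and Slc13a3, a dicarboxylate transporter that supplies the anions exchanged by both, of 0.83, with 0.10 in library 5 and more in every other library. These were all 3 measured genes of the organic ion list, out of 5 in the panel.

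Kap had the widest spread. It stood at 27118, 13495 and 17168 CPM in the vehicle libraries and at 4874, 47059 and 12355 CPM in the furosemide libraries, against 2465 to 9626 CPM in the other cells of the class. Its ratio was 0.71 in the lowest library and 4.10 in library 4, with a mean of 1.89, and 1.27 without the marker cells. Of the S3 markers, 4 of the 9 in the panel were measured, and Kap, Cyp2e1 (an ethanol-oxidising cytochrome) and Slc2a1 (the glucose transporter GLUT1) were higher in every library while Gpx1 was not. Cyp2e1 had a ratio of 0.40 and Slc2a1 of 0.71. Slc7a13, an amino acid transporter of S3, had 22 counts in the 316 cells, or 98.1 CPM, where the authors' Proximal s2/s3 class had 10631 CPM. Kap in that class was at 436020 CPM.

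For Slc22a6 and Cyp2e1 the level in Prox sub3 lay between those of the other clusters of its class, and for some other genes it lay outside them. Averaged over 6 libraries, Slc22a6 was at 1163 ± 261 CPM in the main cluster, 3246 ± 566 in Prox sub3 and 5725 ± 833 in Proximal sub2. Cyp2e1 followed the same order with 3090 ± 811, 5710 ± 1925 and 12900 ± 2525 CPM. Slc13a3 did too, with 2288 ± 258, 4932 ± 951 and 6549 ± 1377 CPM, but in some libraries Prox sub3 was not below Proximal sub2. Kap was at 2442 ± 272 CPM in the main cluster, and its level in Prox sub3 (20340 ± 14960) could not be ordered against Proximal sub2 (21790 ± 18860). Cyp4b1, a cytochrome P450 enzyme, could not be ordered against the main cluster. It was at 14450 ± 2669 CPM there and 16220 ± 6408 in Prox sub3, with 40240 ± 4565 in Proximal sub2. Slc34a3, the phosphate transporter NaPi-IIc, was lowest in Prox sub3, with 1375 ± 339 CPM against 3528 ± 276 and 2186 ± 298. Ugt3a2, a glycosyltransferase, was lowest as well, with 1290 ± 370 CPM against 3901 ± 312 and 5688 ± 1599.

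Against the main cluster alone, 59 of 127 genes (46.5%) kept a direction in all 6 libraries, 23 higher (18.1%) and 36 lower (28.3%). Against Proximal sub2, 53 of 125 genes did (42.4%), 23 higher (18.4%) and 30 lower (24.0%).

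**Figure D2:**
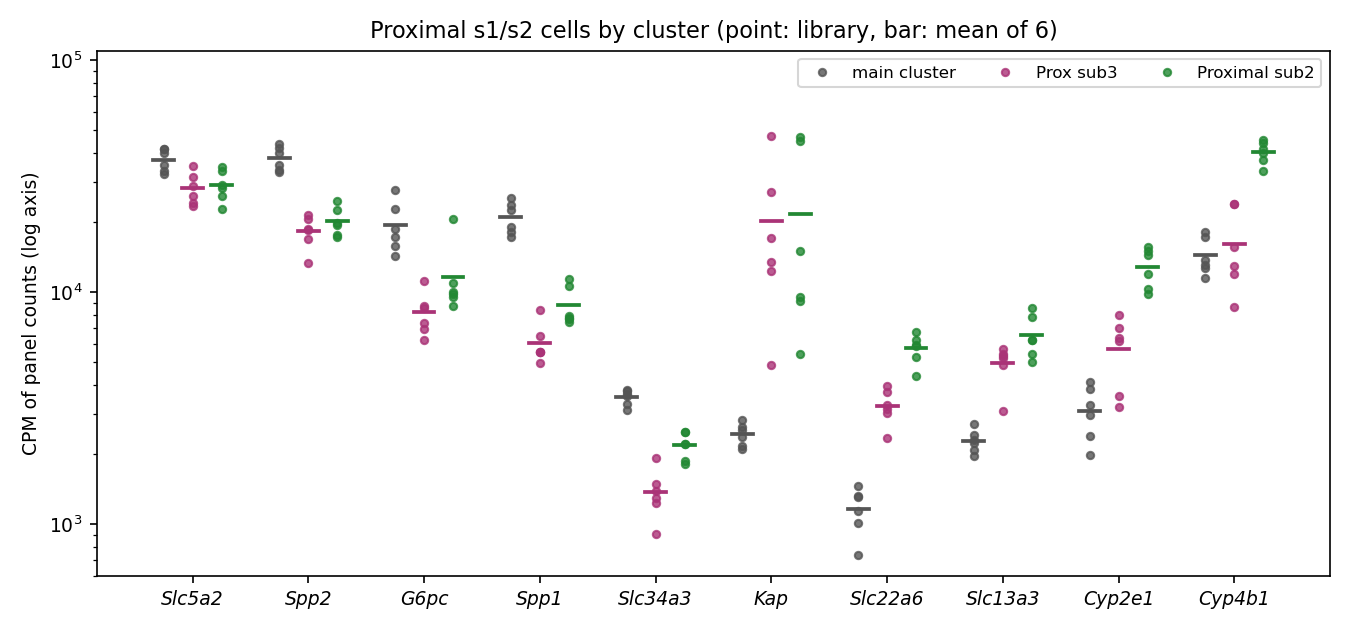
CPM on a log axis for 10 genes in the Proximal s1/s2 cells of 3 clusters; each point is a library and each bar the mean of 6. Slc22a6 is lowest in the main cluster and highest in Proximal sub2, Kap spreads most in Prox sub3 and Proximal sub2, and Slc34a3 is lowest in Prox sub3.

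Of the 6 measured genes of the injury and repair list, out of 19 in the panel, 2 were higher in every library (Adamts1 and Hbegf) and 2 lower (Spp1 and Timp3), beside 13.2% and 26.4% of all 129 genes. With so few members nothing is read from these shares. Spp1 (osteopontin), a matrix phosphoprotein that rises in injured tubules, was lower in Prox sub3 in all libraries: 5543, 5533 and 5516 CPM with vehicle and 6463, 8345 and 4951 CPM with furosemide, against 15674 to 23759 CPM in the other cells of the class. Adamts1, a secreted protease, and Hbegf, a ligand of the epidermal growth factor receptor, were higher, with 1699 ± 433 against 525 ± 142 CPM and 1411 ± 382 against 935 ± 183 CPM. Cxcl10, a chemokine of the interferon response, was at 3868 ± 1107 against 1834 ± 569 CPM.

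Other named genes that were lower in all libraries were Timp3 (an inhibitor of metalloproteinases, mean log2 ratio -1.05), Agtr1a (the type 1 angiotensin receptor, -1.05), Igfbp1 (a binding protein of insulin-like growth factors, -1.26) and Cldn10 (a claudin of tight junctions, -0.90). Col4a3 (a collagen of the basement membrane), the cytochrome Cyp2d9 and C1galt1 (an enzyme of mucin-type glycans) had ratios of -1.27, -1.06 and -0.89. Agtr1a and C1galt1 were low in both sets, at 264 and 316 CPM in Prox sub3, and Agtr1a had 61 counts in all. Aqp1 (the water channel, 0.60), Napsa (an aspartic protease, 0.63) and Tmbim6 (a membrane protein of the endoplasmic reticulum, 0.42) were higher. Tmbim6 stood at 63230 ± 8731 CPM against 46990 ± 4165 CPM, with ratios from 0.23 to 0.50 over the libraries.

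The largest ratios rested on few cells. Ly6e, a surface protein found on many immune and endothelial cells, had a mean ratio of 4.18. Tmsb4x, an actin-binding peptide of motile cells, had one of 3.36. Of the Ly6e counts, endothelial marker cells held 46.5%, immune marker cells 36.1% and the 4 Havcr1 cells 36.1%, with some cells in more than 1 group. Tmsb4x had a ratio of 0.65 without the marker cells. Ly6e then had 9 counts in all, with 0 counts in libraries 3, 4 and 5 and 27.0, 72.9 and 88.3 CPM in libraries 1, 2 and 6, against 26.2, 52.3 and 55.0 CPM in the other cells of the class. Its mean ratio of -2.48 is set by the 3 libraries at 0 and the pseudocount, and no direction was read from it. Agtr1a had a mean of -2.41 without the marker cells because library 4 was at 0, while the other libraries ran from -1.88 to -0.50. For the other 22 named genes the ratio without marker cells stayed on the same side of 0, for instance 1.09 for Slc22a6, -2.00 for Spp1 and 1.54 for Adamts1.

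**Figure D3:**
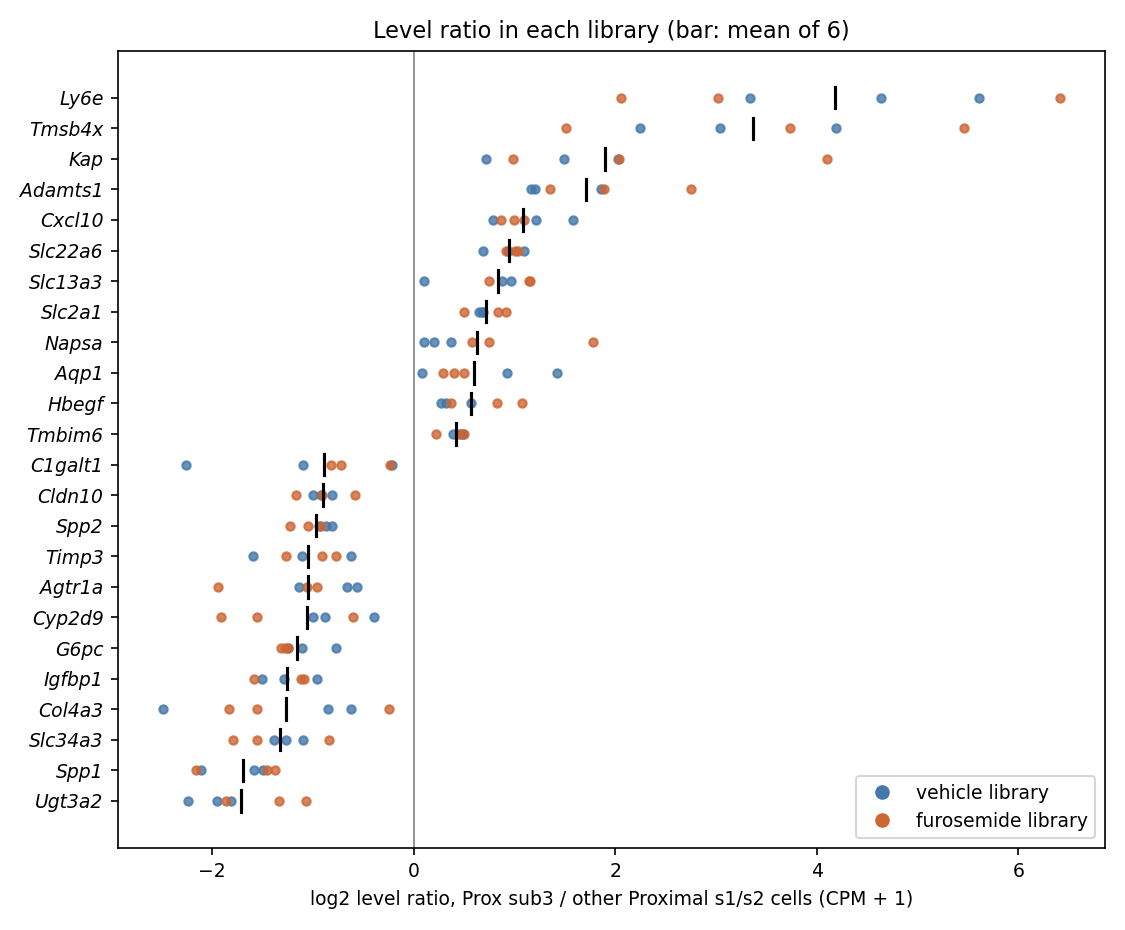
The log2 level ratio of Prox sub3 over the other Proximal s1/s2 cells in each of 6 libraries (points) with its mean (bar), for the 12 highest and 12 lowest genes that kept their direction. Ly6e, Tmsb4x and Kap spread most between libraries, while Slc22a6 and Tmbim6 spread little.

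Counts of many genes sat in a handful of the 316 cells. Of 202 genes with at least 30 counts, 32 had over 50% of them in 5 cells. Lyz2, the lysozyme of macrophages, had 304 counts in 6 cells, of which the highest 4 held 151, 127, 15 and 8. Esm1, made by endothelial cells, had 86 counts in 7 cells, and Igfbp3, a binding protein of insulin-like growth factors, had 109 in 9. By contrast the 5 highest cells held 4.89% of the counts of Slc5a2.

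Pooled, the cells with immune or endothelial markers also held proximal transcripts. The 13 immune marker cells had 24060 CPM of Slc5a2 and 21510 CPM of Spp2, with 29630 CPM of Lyz2 and 29630 CPM of Tmsb4x. Of the 13 cells, 12 had a count of Slc5a2 but only 5 a count of Lyz2, so the pooled values do not show both in each cell. The 10 endothelial marker cells had 25360 CPM of Slc5a2 and 27210 CPM of Spp2, with 8192 CPM of Esm1 and 10340 CPM of Igfbp3. In the authors' immune class Slc5a2 and Spp2 were at 88.1 and 94.0 CPM. The deposited table had, per its name, been cleared of doublets by the authors, and no doublet caller was run here. Whether these cells are pairs was not tested. Over libraries, the summed immune markers ran from 129 to 9439 CPM with vehicle and from 71.7 to 6118 CPM with furosemide, and the endothelial ones from 208 to 569 and from 14.3 to 410 CPM, so neither list separated the treatments. No marker of either list was at 0 in the 316 cells.

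The 4 cells with 2 or more counts of Havcr1 had a different profile, though they overlap with the immune marker cells. They had 50, 26 and 22 counts of Havcr1 in library 4 and 8 in library 6, and 96.4% of all its counts in the 316 cells. The immune marker cells, of which 3 had a count of Havcr1, held 70% of its counts. Slc5a2 had 1 count in 1 of the 4 cells (285 CPM), and Spp2 and Pck1 had no count. Kap was at 217600 CPM, against 13920 CPM in the cells that are not marker cells. They also held 51.2% of the counts of Cxcl1, a neutrophil chemokine, 29.6% of those of the stress factor Atf3, and 43.8% of those of Lgals3 (galectin 3). The early proximal label therefore did not hold for these 4 cells by Slc5a2. Among the 2650 other cells of the class, none had 2 or more counts of Havcr1. By counting error alone, with cells pooled over libraries, this allows a share of up to 0.113%.

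Kap came first by counts in 10 cells, 3 of which were Havcr1 cells of library 4. The remaining 7, from vehicle libraries 1, 3 and 5, all had Slc5a2, at 19130 CPM, beside 276700 CPM of Kap. The 10 cells held 39.8% of all Kap counts. A count of Kap was found in 72.5% of the 316 cells, but also in 70.9% of immune cells. Its presence alone does not tell these cells from immune cells and was not read as expression. The part of free RNA in it was not tested.

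**Figure D4:**
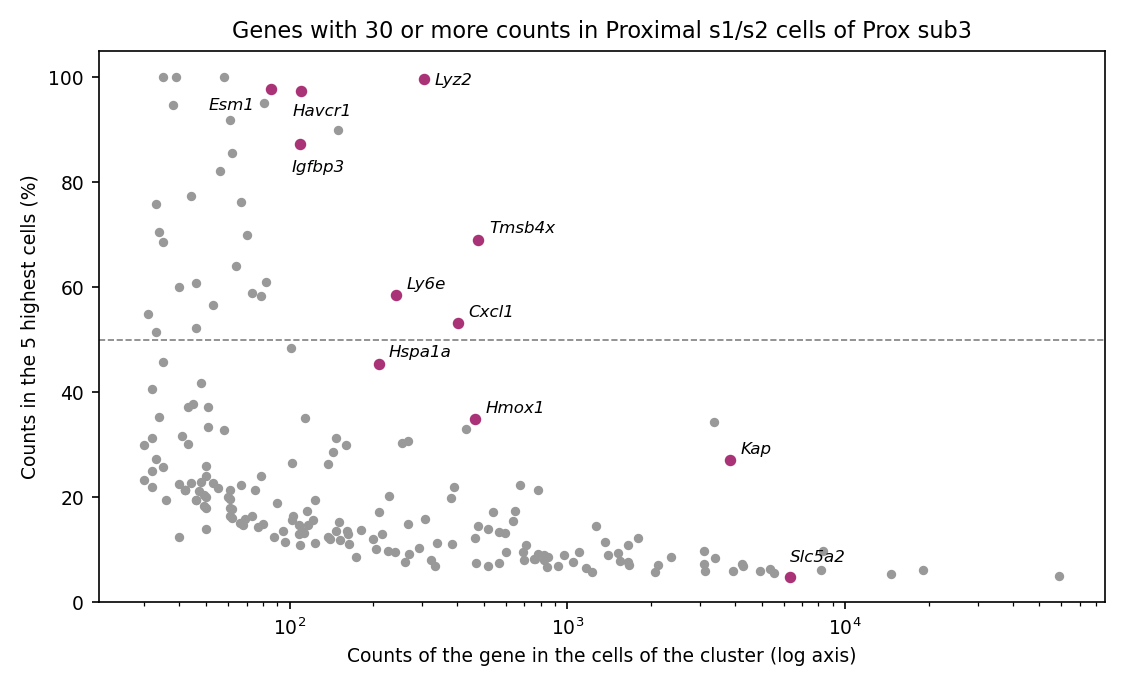
For each gene with 30 or more counts in the 316 cells, its counts (log axis) against the percentage held by its 5 highest cells; the dashed line marks 50%. Lyz2, Esm1, Havcr1 and Igfbp3 lie near the top, Tmsb4x, Ly6e and Cxcl1 above the line, and Slc5a2 at 4.89%.

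After 1 week of furosemide no gene of the cluster passed the test over all genes. Sums of counts per library were compared with edgeR's quasi-likelihood test, and 0 of 144 genes (0.0%) had a Benjamini-Hochberg adjusted p under 0.05. At an unadjusted p under 0.05 there were 9 genes (6.25%). The libraries of both treatments did not overlap in CPM for 15 genes (10.4%), 8 higher with furosemide (5.56%) and 7 lower (4.86%). Full separation of 3 against 3 libraries has an exact permutation p of 0.1, so about this share of genes separates without any effect. A lack of overlap is therefore given as a description and not as a treatment response. Of these 15 genes, 10 still did not overlap without the marker cells, and Hbegf, Map2k2, Id3, Pfkm and Umod did. DESeq2 on the same sums called 3 genes (2.08%): Cyp4b1 and Hmox1 higher and Hspa1a lower. Without the marker cells edgeR called 3 of 122 genes (2.46%), all lower: Hspa1a, Ccnd1 and Kap. The median log2 fold change of the 144 genes was 0.02 with the scaling used and 0.13 when libraries were scaled by their totals alone.

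Among genes higher with furosemide, Hmox1, the enzyme that breaks down heme, had the smallest p. It had 1353, 284 and 295 CPM in vehicle libraries 1, 3 and 5 and 3767, 11900 and 1550 CPM in furosemide libraries 2, 4 and 6. The 2 groups did not overlap, but library 1 and library 6 lay close together. Its log2 fold change was 2.91 (SE 0.83, adjusted p = 0.298 by edgeR, 0.030 by DESeq2), and its 4 highest cells, with 63, 33, 26 and 20 counts, were all from library 4. Without that library the value was 1.97 (adjusted p = 0.590 by edgeR), and over all alternatives run the adjusted p ran from 0.030 to 0.857. Its fold change in the other cells of the class was 0.80 (SE 0.31).

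Cyp4b1 was also higher with furosemide. It had 13038, 12048 and 8672 CPM with vehicle and 24022, 23940 and 15627 CPM with furosemide. Every furosemide library lay above every vehicle library, by a log2 fold change of 0.78 (SE 0.23, adjusted p = 0.298 by edgeR, 0.030 by DESeq2). In the other cells of the class the same fold change was 0.16 (SE 0.13, adjusted p = 0.910 by edgeR).

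Cyr61, a matrix protein induced by growth factors and stretch, had 2655, 1577 and 1298 CPM with vehicle and 4079, 6430 and 3114 CPM with furosemide. Ifrd1, an interferon-related regulator, had 1275, 1008 and 1327 CPM and then 2212, 3625 and 2038 CPM. Neither gene overlapped between treatments, and library 4 was highest for both. Their log2 fold changes were 1.14 (SE 0.33) and 0.94 (SE 0.30), each with an adjusted p of 0.298 by edgeR. The same fold changes in the other cells of the class were 0.27 (SE 0.21) and 0.87 (SE 0.26), so that Ifrd1 had a similar value in both sets. Atf3, a transcription factor of the stress response, was at 1135 ± 386 CPM (SD, n = 3) with vehicle and 3111 ± 1977 CPM with furosemide and overlapped, with a log2 fold change of 1.29 (adjusted p = 0.386 by edgeR). Without the marker cells Atf3 was at 838 ± 186 CPM with vehicle and 1501 ± 276 CPM with furosemide. Its libraries then no longer overlapped, and its log2 fold change was 0.81 (adjusted p = 0.164 by edgeR).

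The genes lower with furosemide included both tested heat shock genes of the lists. Hspa1a, the inducible chaperone HSP70, had 1535, 2430 and 796 CPM with vehicle and 415, 684 and 100 CPM with furosemide. The groups did not overlap, at a log2 fold change of -2.27 (SE 0.62, adjusted p = 0.298 by edgeR, 0.043 by DESeq2). It had 209 counts in 63 cells, and the 5 highest held 45.5% of them. Without the marker cells it was at 1457, 1245 and 622 CPM with vehicle and at 72.9, 417 and 103 CPM with furosemide, and it fell by 3.18 on the log2 scale (adjusted p = 6.1e-06 by edgeR). The furosemide values rest on few counts, as 3 counts then equal 109, 417 and 44 CPM in libraries 2, 4 and 6. Over all alternatives run the adjusted p ran from 6.1e-06 to 0.767. Dnajb1, a co-chaperone of HSP70, had 833, 543 and 472 CPM and then 104, 410 and 258 CPM, a log2 fold change of -1.42 (adjusted p = 0.386 by edgeR, 0.116 without marker cells).

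Ccnd1, the cyclin of entry into the cell cycle, had 4190, 3025 and 2979 CPM with vehicle and 1348, 889 and 1952 CPM with furosemide. Its groups did not overlap, at a log2 fold change of -1.32 (SE 0.39, adjusted p = 0.298 by edgeR). Without the marker cells the fold change was -1.20 and passed (adjusted p = 0.021 by edgeR). Its vehicle libraries then ran from 3080 to 4290 CPM, above 2002 CPM, the highest with furosemide. Ccnd1 did not overlap in the other cells of the class either, with a log2 fold change of -0.64 (SE 0.21). Id3, an inhibitor of differentiation factors, had 6064, 10080 and 13690 CPM and then 5150, 5267 and 4850 CPM, a log2 fold change of -1.12 (SE 0.36, adjusted p = 0.298 by edgeR). The furosemide libraries of Id3 were close to each other, and the vehicle library nearest to them was library 1. Its groups overlapped once the marker cells were left out, with library 1 at 6152 CPM and furosemide library 4 at 6803 CPM, and the fold change was -1.04 (adjusted p = 0.077 by edgeR). The fold change in the other cells of the class was -0.64 (SE 0.30). Umod, the uromodulin of the thick ascending limb, had a log2 fold change of -1.20 (SE 0.54, adjusted p = 0.735 by edgeR). With the marker cells left out it was -0.40 (adjusted p = 0.815 by edgeR) and the groups overlapped, at 243 to 529 CPM with vehicle and 109 to 427 CPM with furosemide. Its pooled level, 508 CPM, was under the 593 CPM of the immune class, a level at which free RNA and expression cannot be told apart.

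Kap gave different answers with and without a few cells. With all cells its vehicle libraries averaged 19260 ± 7048 CPM and its furosemide libraries 21430 ± 22510 CPM, at a log2 fold change of -0.08 (SE 0.68, adjusted p = 0.955 by edgeR). Library 4, whose Havcr1 cells hold much Kap, went from 47059 to 4720 CPM when the marker cells were left out. The furosemide libraries were then at 5068, 4720 and 10890 CPM and the vehicle libraries at 26230, 12570 and 17070 CPM, without overlap, and Kap fell by 1.46 on the log2 scale (adjusted p = 0.022 by edgeR). In the other cells of the class, Kap averaged 7354 ± 2808 CPM with vehicle and 2738 ± 272 CPM with furosemide, at a log2 fold change of -1.42 (SE 0.31, adjusted p = 0.305 by edgeR). The criterion leaves out the 3 cells led by Kap in furosemide library 4, which hold 16.8% of all Kap counts. The 7 other cells led by Kap, with under 2 Havcr1 counts, all lie in vehicle libraries and hold 23.0%. The call without the marker cells depends on which cells with much Kap were left out. It is not read as a treatment response. Free RNA was not removed, and its part in these values was not tested.

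Of the 8 tested core genes of the segment, Slc5a2 alone did not overlap between treatments, beside 10.4% of all 144 genes, so the count is no result about the core genes. It had 35003, 28645 and 31327 CPM with vehicle and 26027, 23666 and 24208 CPM with furosemide. The log2 fold change of -0.49 (SE 0.24) had an adjusted p of 0.814 by edgeR. In the other cells of the class it was -0.06 (SE 0.14). For Slc2a2, G6pc, Pck1, Slc22a6, Slc4a4, Kl and Spp1 the libraries overlapped, with log2 fold changes between -0.52 (Kl) and 0.17 (G6pc) and adjusted p from 0.814 to 0.955 by edgeR. Gatm and Slc5a1 (the glucose cotransporter of later segments, 5 counts) had too few counts to be tested. Havcr1 did not pass the filter either, as 96.4% of its 110 counts lay in 4 cells of libraries 4 and 6.

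No gene of any list was called. Of the 10 tested S1 and S2 markers 3 lay above 0 and 7 below, with a median of -0.19, against 74 above and 70 below and a median of 0.02 over all 144 genes. The 6 tested immediate early and heat shock genes were split 3 to 3 (median 0.26), and 2 of them, Hspa1a and Dnajb1, did not overlap, both lower, beside 4.86% of all 144 genes. Of the 5 tested detoxification genes 4 lay above 0, of the 4 antioxidant and iron genes 3 did, and of the 5 tested injury and repair genes 4 did, with medians of 0.19, 0.46 and 0.28. The 3 tested cytokine genes, Cxcl1, Cxcl10 and Icam1, had a median of 1.31. Cxcl1 was at 1405, 801 and 1062 CPM with vehicle and at 968, 9576 and 1650 CPM with furosemide. Furosemide library 4 alone stood out for Cxcl1, and it holds 3 of the 4 Havcr1 cells in which 51.2% of the Cxcl1 counts lie.

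**Figure D5:**
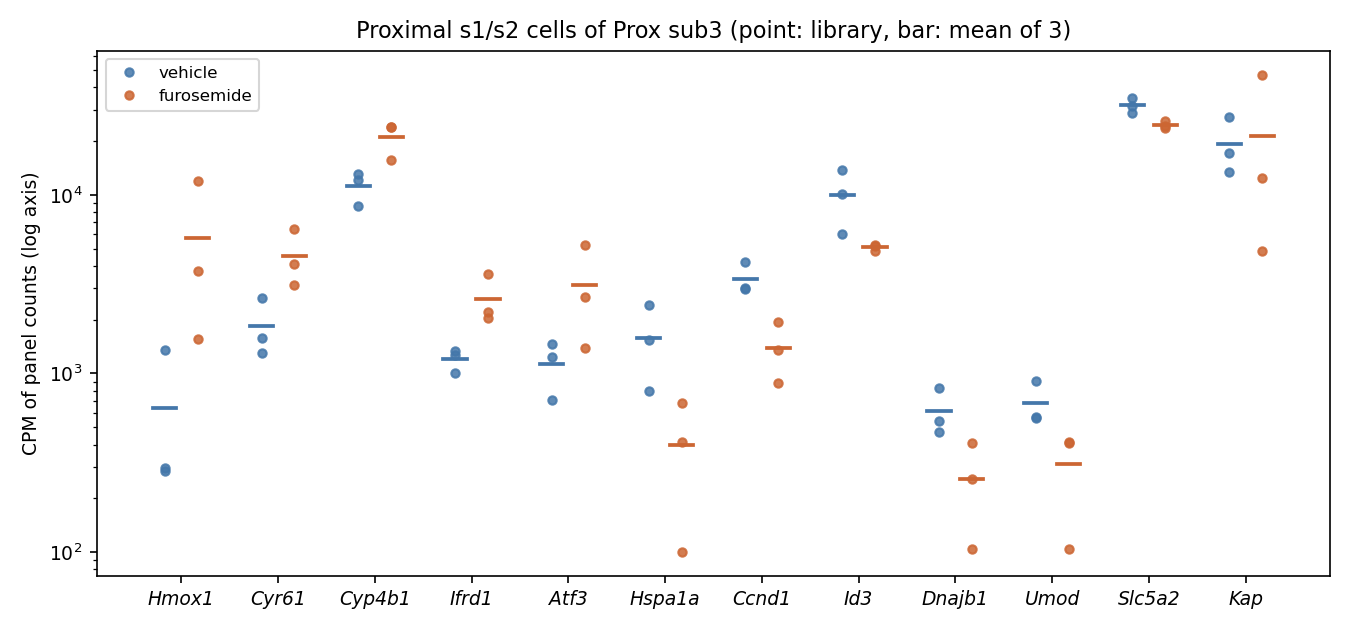
CPM on a log axis in the Prox sub3 cells of each library (points) with the mean of 3 (bar), for the 10 genes of smallest p, Slc5a2 and Kap. Hmox1, Cyr61, Cyp4b1 and Ifrd1 are higher without overlap with furosemide, Hspa1a, Ccnd1, Id3, Dnajb1, Umod and Slc5a2 lower; Atf3 and Kap overlap, and no gene passed the adjusted test with all cells.

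Whether furosemide acted differently in Prox sub3 than in the other cells of the class was asked with 1 fit over both sets and the library as a block. Of 268 genes 0 passed (0.0%) by edgeR, and 14 had an unadjusted p under 0.05 (5.22%). In the other cells alone, 0 of 265 genes passed (0.0%), with 17 at an unadjusted p under 0.05 (6.42%). DESeq2 called 2 genes there, Calb1 and Kap. The smallest p of a larger value in Prox sub3 belonged to Cyr61, Cyp4b1 and Hmox1, with differences of log2 fold change of 0.92 (SE 0.24), 0.68 (SE 0.18) and 2.04 (SE 0.68). Their adjusted p by edgeR were 0.369, 0.369 and 0.795.

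In the other direction stood Hspa1a, with a difference of -1.78 (SE 0.46, adjusted p = 0.369 by edgeR). In the other cells of the class it averaged 665 ± 224 CPM with vehicle and 459 ± 131 CPM with furosemide, with overlap. Without the marker cells Hspa1a was the only gene of 249 (0.402%) to pass, at -2.59 (adjusted p = 0.006 by edgeR), while over all alternatives run its adjusted p reached 0.992. The value of -2.59 rests on the same few furosemide counts. Atp6v1g3, a proton pump subunit of intercalated cells, and Sparc, a matrix protein, had differences of -4.10 and -3.78 (adjusted p = 0.795 for both by edgeR). They were found in 14 and 11 of the 316 cells, with 85.5% and 75.8% of their counts in 5 cells. For Slc5a2 the difference was -0.37 (SE 0.23, adjusted p = 0.953 by edgeR), and for Kap 0.92 (SE 0.73, adjusted p = 0.953 by edgeR).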

How the data were processed

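The deposited table holds counts per cell and panel gene as whole numbers. Bowtie2 2.2.9 was named in the submitters' processing notes; build, counting step and the kind of count (molecules or reads) are not given in the sources used here. Per the file headers, class, cluster, library and treatment of each cell are the authors' own. Samples are named by library, since titles and libraries share no number. Nothing states that libraries came from separate animals, so p-values may measure technical spread only. Sums over the cells of a set and library were fitted with edgeR 4.0.16 in R 4.3.3 (TMM, filterByExpr, robust glmQLFit and glmQLFTest, adjusted p under 0.05), with the library as a block for the difference between sets; limma 3.58.1 (voom) and DESeq2 1.42.0 were alternatives. Cells were not filtered. CPM are plain shares of panel counts, with a pseudocount of 1 in level ratios. The fits were tested on simulated data with the same spread for every gene, which does not cover genes whose counts sit in few cells. Named were 12 genes at each end of the level ratios, called genes or else the 5 of smallest p in each direction for treatment and 3 for the difference, and 12 core genes, of which the panel holds 11. The cells and 34 gene lists were chosen with earlier results of these data known. Intervals cover counting error only. Values of 1 gene are not reported here.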

Additional observations from a re-analysis of the deposited data

How the results depend on the processing

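No paired analysis was possible because no source links the numbered samples to the numbered libraries in which cells are listed. For treatment in Prox sub3, where no gene was called, the count became 3 with DESeq2, 1 when cells were thinned to 300 counts (Igfbp3, at -5.20 from counts in 9 cells, adjusted p = 0.009 by edgeR) and 3 without the marker cells, and it was 0 without any one library, with other scalings, without a filter, with limma-voom, with equal cell numbers (20 per library), without the 5% deepest cells and over the whole cluster. In the other cells of the class the count was 2 with DESeq2 and 0 to 1 over left-out libraries (1 without vehicle library 5, Kap at -1.71). For the difference between sets it was 1 without the marker cells and 0 to 1 over left-out libraries (1 without furosemide library 2, Atf3 at 1.65, adjusted p = 0.048 by edgeR). The log2 ratio of shares of all cells, -0.07, ran from -0.76 to 0.36 over left-out libraries and turned without furosemide library 4 (0.36) or vehicle library 5 (0.10). That of median counts per cell, 0.14, ran from -0.068 (without vehicle library 5) to 0.47. The 17 higher and 34 lower genes became 28 and 54 without furosemide library 4, and ran from 17 to 28 and from 34 to 54 over left-out libraries. Of single genes near 0, Pck1 ran from -0.55 to 0.021 over left-out libraries, Slc4a4 from -0.092 to 0.058 and Spp1 from -0.016 to 0.21. Slc4a4 was at 0.11 with library totals alone, 0.066 without the deepest cells and 0.0064 with equal cell numbers, and Spp1 at -0.035 after thinning. The level ratio of Ly6e was -2.48 without the marker cells, a value set by 3 libraries at 0 and the pseudocount. The other causes were not tested. With 20 cells in furosemide library 4 and 43 counts of Gatm in all, changes in weakly covered genes were not detectable at this depth.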

Other observations

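Further genes whose libraries did not overlap between treatments in Prox sub3, none of which passed the adjusted test, were Adh1 (alcohol dehydrogenase), Hbegf, Map2k2 and Cul3 on the higher side and Pfkm, the muscle phosphofructokinase, on the lower. Adh1 averaged 3801 ± 1131 CPM (SD, n = 3) with vehicle and 5425 ± 414 CPM with furosemide. Hbegf averaged 1140 ± 274 and 1682 ± 262 CPM, Map2k2 604 ± 103 and 897.6 ± 170.4 CPM, and Pfkm 581 ± 86 and 325 ± 128 CPM. The adjusted p of each by edgeR was 0.814. Hbegf (log2 fold change 0.26, 809 to 1338 CPM with vehicle and 972 to 1568 CPM with furosemide), Map2k2 (0.25) and Pfkm (-0.57) overlapped without the marker cells. Adh1 and Cul3 overlapped when the libraries were scaled by TMM.

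Some transcripts with their highest level in other classes sat in single cells, while others were spread. S100g, a marker of the connecting tubule, had 540 counts in 212 of the 316 cells with 17.2% in 5 cells. It was also at 1696 CPM in the other Proximal s1/s2 cells, and at 383900 CPM in the connecting tubule class. The part of free RNA in it was not tested. Wnk1, a kinase highest in the distal convoluted tubule class, had 261 counts in 163 cells with 7.66% in 5. By contrast, one cell held 36 of the 39 counts of Edn1 (endothelin 1) and another 53 of the 58 counts of S100a4, and yet another 23 of the 35 counts of Rhbg, an ammonia transporter of the collecting system. Of the 62 counts of Atp6v1g3, 2 cells held 31 and 19. Ttr, the thyroxine carrier transthyretin, had 3374 counts in 130 of the 316 cells, with 449 in the highest and 34.4% in 5 cells, and came first by counts in 47 of the other 2650 cells of the class. Among stromal and muscle markers, Col1a1, Col1a2, Col3a1 and Postn had no count in the 316 cells.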
